A study of Mus musculus with 32 samples.

Results

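The genes described here are 9 members of the matrix metalloproteinase (MMP) system, chosen by gene symbol from the 31053 genes in the deposited count tables. They are the proteinase genes *Mmp2*, *Mmp3*, *Mmp9*, *Mmp12*, *Mmp13* and *Mmp14* and the inhibitor genes *Timp1*, *Timp2* and *Timp3*, whose products are the tissue inhibitors of metalloproteinases (TIMPs). The rule that chose them uses symbols and no measured value, although earlier results of these data were known when it was set. The study cultured bone marrow stromal cells from the femurs of 77 Diversity Outbred (DO) mice, an outbred stock descended from inbred founder strains in which every animal is genetically unique. The cultures were kept in osteogenic medium for 10 days, giving mineralizing stromal cultures called BMSC-OBs, and were then dissociated with EDTA, collagenase and trypsin and profiled by droplet single-cell RNA-seq. Cells of 4 or 5 mice were combined into each of 16 pools, numbered 1 to 14, 17 and 18 in the labels, and each pool was sequenced in 2 runs, of which the first is used here. The labels give no treatment, and all pools went through the same culture. Each pool holds different mice, so genotype differs between pools. Cells could not be assigned to single mice here, so each value sums the cells of a class over the 4 or 5 animals of a pool. Animals with more or deeper cells weigh more in it, and the part of each animal is not known. In a class with few cells, 1 animal may hold most of them. Groups were therefore classes of cells within a pool, compared across pools, and p-values measure the spread between pools.

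MMPs are zinc endopeptidases that cut collagens and other proteins of the extracellular matrix, and in bone they act in osteoclastic resorption, in vascular invasion of cartilage and around osteocytes. Most are secreted as inactive proenzymes, while MT1-MMP (*Mmp14*) sits in the plasma membrane, where it cuts collagen and, together with TIMP2, activates the gelatinase MMP2. TIMPs bind the active site of MMPs, and their expression by stromal cells sets how far secreted proteinases can act.

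Across the 16 pools 107853 barcodes were called as cells, 3460 to 9429 in a pool, with 53990642 to 100777353 unique molecular identifiers (UMIs) counted per pool. After filters on detected genes, mitochondrial and ribosomal share and called doublets, 84378 cells were kept, and any pair of pools shared 0.055% to 0.434% of its barcodes. Classes were gated on lists of marker genes that include none of the 9 members. The gates gave 57723 mesenchymal cells (68.4% of the kept cells), 10435 macrophage-like cells (12.4%), 1397 granulocyte-like cells (1.66%) and 369 osteoclast-like cells (0.437%), and within the mesenchymal cells 9025 osteoblast-like, 3987 osteocyte-like, 5750 adipogenic-like and 7008 contractile progenitor-like cells. The other mesenchymal cells passed no sub-class gate or more than 1, and count in the mesenchymal class only. A further 13869 cells (16.4%) were left without a class, having passed no gate or more than 1 leukocyte gate. Each class carried its own markers, which the gates required. The summed macrophage markers, for example, had a median of 90.4 UMIs per 10,000 in macrophage-like cells against 0.883 in mesenchymal cells. Markers of other lists were present as well. Macrophage-like cells had medians of 11.2 for the mesenchymal, 8.29 for the osteoclast and 11.9 for the adipogenic list. The adipogenic list was 23.4 in osteoclast-like cells. Levels are given below as UMIs per 10,000 UMIs of the class in a pool, for pools with at least 20 cells of the class, as mean ± SD. Osteoclast-like cells reached that number in only 3 pools, pool 1 (129 cells), pool 2 (85 cells) and pool 6 (28 cells), and 10 cells in 9 pools. The 368 T-cell-like cells, which had at least 20 cells in 4 pools and belong to none of the lineages compared, are given as the background of free RNA. UMIs come from the 3′ end of transcripts, so levels are compared between classes and pools and not between genes.

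*Mmp13*, *Mmp12* and *Mmp3* lie in 1 cluster of 10 Mmp genes on chromosome 9 (GRCm38, chr9:7272514-7699585), at chr9:7272514-7283331, chr9:7344381-7369499 and chr9:7445822-7455975, all on the plus strand. Despite this shared position the 3 genes were not all detected in the same cells. *Mmp13* was mesenchymal and *Mmp12* was found in macrophage- and osteoclast-like cells. *Mmp3* was close to absent, and its 35 UMIs were all in mesenchymal cells. The other members are dispersed, *Mmp2* at chr8:92827291-92853420, *Mmp9* at chr2:164940780-164955850, *Mmp14* at chr14:54431612-54445364, *Timp1* at chrX:20870166-20874735 and *Timp3* at chr10:86300372-86349506 on the plus strand and *Timp2* at chr11:118301069-118355740 on the minus strand. *Timp2* overlaps *Cep295nl* on the same strand, and reads in the shared stretch cannot be told apart. *Mmp12*, *Timp1* and *Timp3* overlap *Mmp1b*, *Syn1* and *Syn3* on the opposite strand.

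RefSeq promoters (GRCm38.p6, 300 bases around the annotated start) were held for 7 of the 9 members, with 8 promoters in all. Both strands were searched for the AP-1 motif (TGAGTCA or TGACTCA, in 5.2% of 32851 mouse promoters), the RUNX motif (TGTGGTT or AACCACA, in 5.27%) and TATAAA or TTTATA (in 13.6%), because AP-1 and RUNX2 are textbook regulators of the collagenase gene in osteoblasts. The AP-1 letters occurred in the promoters of all 3 members in the chromosome 9 cluster, whose other genes were not searched, for *Mmp12* in the second of its 2 promoters, and the RUNX letters only in that of *Mmp13*. The windows are shown because the 3 members of this cluster share the AP-1 letters. The RNA of *Mmp13* and the 35 UMIs of *Mmp3* were mesenchymal, while *Mmp12* RNA lay mostly in other cells. Capitals mark the motif, and all windows are on the plus strand.

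Mmp13 AP-1, chr9:7272468-7272497, 35 bases before the start: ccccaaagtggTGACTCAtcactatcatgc

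Mmp13 RUNX, chr9:7272384-7272413, 119 bases before the start: attctgccacaAACCACActtaggaagaaa

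Mmp3 AP-1, chr9:7445765-7445794, 46 bases before the start: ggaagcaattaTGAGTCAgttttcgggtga

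Mmp12 AP-1, chr9:7347319-7347348, 44 bases before the start: gacatcaacagTGAGTCAgatagaggattt

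The first *Mmp12* promoter and those of *Mmp14*, *Timp1*, *Timp2* and *Timp3* held none of the 3 motifs in this window. A match is a description of the letters and not evidence of binding.

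Most of the RNA of the system lay in the mesenchymal cells. They were 68.4% of the kept cells, with a median depth of 14906 UMIs against 4785 in macrophage-like cells. Most of the RNA of all genes thus lay there too. Its share was not computed, so the shares below do not show that a member is enriched there. Mesenchymal cells held 97.0% of all *Mmp2* UMIs of the kept cells, 95.7% of those of *Mmp13*, 91.3% of *Mmp14*, 96.6% of *Timp1*, 86.1% of *Timp2* and 90.5% of *Timp3*. *Mmp9* and *Mmp12* had the opposite distribution. The 369 osteoclast-like cells alone held 60.5% of all *Mmp9* UMIs, against 18.0% in mesenchymal, 8.46% in granulocyte-like and 4.96% in macrophage-like cells, and the macrophage-like cells held 49.4% of all *Mmp12* UMIs. A further 34.7% of *Mmp12* UMIs were in cells left without a class. These shares sum over pools of unequal *Mmp9* totals. As the mean over the 16 pools, osteoclast-like cells held 46.1 ± 31.4% of *Mmp9* UMIs (0 to 88.8%), granulocyte-like cells 20.4 ± 27.4%, mesenchymal cells 14.9 ± 12.7% and macrophage-like cells 8.35 ± 9.33%, so granulocyte-like and mesenchymal cells changed places. By the means of the 4 pools with both, the level of *Mmp9* in mesenchymal cells was 0.813 times that in T-cell-like cells. It was above the T-cell-like level in 3 of 4. The mean mesenchymal level of these 4 pools was 0.00786 UMIs per 10,000. Pools 1 and 13, with the highest mesenchymal levels (0.153 and 0.276), were not among them. Whether the mesenchymal *Mmp9* of pools 1 and 13 was free RNA was not tested.

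**Figure D1:**
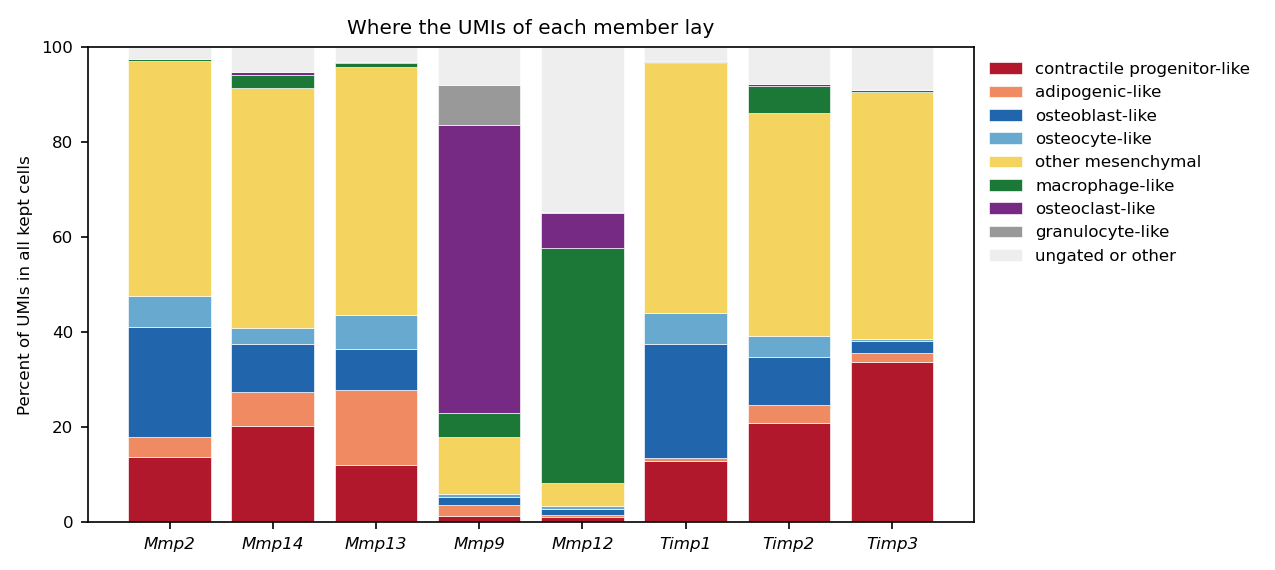
Share of each member's UMIs, in percent of all its UMIs in the kept cells of 16 pools, by gated class (stacked bars). The bars of *Mmp2*, *Mmp13*, *Mmp14* and the 3 TIMP genes are almost wholly mesenchymal (86.1% to 97.0%), while 60.5% of *Mmp9*, summed over pools, lies in osteoclast-like cells (46.1% as the mean over pools) and 49.4% of *Mmp12* in macrophage-like cells. Mesenchymal cells are 68.4% of the kept cells and deeper than macrophage-like cells (median 14906 and 4785 UMIs). They thus hold most UMIs of all genes, a share that is not shown.

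*Mmp2*, which encodes gelatinase A, was the most even member over pools in mesenchymal cells taken as a whole. There it ranged over the 16 pools from 1.99 through a median of 2.37 to 2.84 UMIs per 10,000 (mean 2.39 ± 0.234, a coefficient of variation of 9.80%). Within them it was 2.88 ± 0.457 in osteoblast-like, 2.28 ± 0.322 in contractile progenitor-like, 2.04 ± 0.468 in osteocyte-like and 1.61 ± 0.477 in adipogenic-like cells. The pools of each class overlapped those of the next in this order. Macrophage-like (0.158 ± 0.0515), granulocyte-like (0.141 ± 0.0967) and osteoclast-like cells (0.0771 ± 0.0690, n = 3) lay near the T-cell-like level of 0.170 ± 0.103 (n = 4). In the 4 pools with T-cell-like cells, *Mmp2* was above their level in 3 of 4 pools in macrophage-like cells (1.00 times) and in 4 of 4 in granulocyte-like cells (1.28 times).

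*Mmp14*, the membrane-bound activator, was spread over mesenchymal, macrophage- and osteoclast-like cells. It was 1.84 ± 0.417 UMIs per 10,000 in contractile progenitor-like, 1.46 ± 0.386 in adipogenic-like, 0.696 ± 0.160 in osteoblast-like, 0.638 ± 0.223 in osteocyte-like and 0.568 ± 0.127 in macrophage-like cells. In osteoclast-like cells of pools 1, 2 and 6 it was 2.27, 1.35 and 0.618. Granulocyte-like cells (0.0227 ± 0.0211) did not rise above T-cell-like cells (0.0374 ± 0.0263), whereas macrophage-like cells were 14.8 times the T-cell-like level in the 4 pools with both and above it in 4 of 4.

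*Mmp13*, the main interstitial collagenase of rodents, was by median highest in adipogenic-like cells among the gated mesenchymal sub-classes. Their lowest pool had 4.54, the median was 16.4 and the highest pool had 40.7 UMIs per 10,000. Contractile progenitor-like cells had 3.04, 5.27 and 10.1, osteocyte-like cells 1.35, 4.33 and 45.5, and osteoblast-like cells 0.301, 0.951 and 20.02 in the same order. By median, *Mmp13* thus fell from adipogenic-like through contractile progenitor-like and osteocyte-like to osteoblast-like cells, with ranges that overlapped throughout. Macrophage-like cells had 0.935 ± 0.380, which was above T-cell-like cells (0.200 ± 0.164) in 4 of 4 shared pools by 6.41 times, and granulocyte-like cells (0.198 ± 0.140) were at the T-cell-like level. In osteoclast-like cells of pools 1, 2 and 6 it was 0.775, 0.549 and 9.56, and 245 of the 263 UMIs of pool 6 were in 1 cell. After every cell was thinned to 1000 UMIs, 42.5% of adipogenic-like cells had an *Mmp13* UMI against 1.69% of T-cell-like cells, whose median depths before thinning were 9175.5 and 4586.75 UMIs.

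*Mmp3*, stromelysin-1, had 35 UMIs in all kept cells, and all of them were in mesenchymal cells. None was counted in macrophage-like, osteoclast-like or granulocyte-like cells, and *Mmp3* was too low to be tested in any comparison.

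*Mmp9*, gelatinase B and a classical product of osteoclasts and neutrophils, was 20.2, 8.19 and 5.74 UMIs per 10,000 in the osteoclast-like cells of pools 1, 2 and 6. In the 9 pools with at least 10 such cells it ran from 5.59 to 76.2 with a median of 20.2. Granulocyte-like cells had 0.386 to 2.65 (median 1.24, n = 11), macrophage-like cells 0.00898 to 0.578 (median 0.0988, n = 16) and mesenchymal cells 0.00117 to 0.276 (median 0.00780). The osteoclast-like pools lay wholly above the granulocyte-like pools, which overlapped the macrophage-like ones at their lower end. The highest macrophage-like and mesenchymal values were both from pool 13.

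*Mmp12*, macrophage metalloelastase, was 17.1, 30.7 and 57.3 UMIs per 10,000 in the osteoclast-like cells of pools 1, 2 and 6. In the 9 pools with at least 10 such cells it ran from 4.91 (pool 13) to 65.5 (pool 5) with a median of 22.4, overlapping the macrophage-like pools. In macrophage-like cells it ranged from 2.31 (pool 8) through a median of 10.0 to 21.0 (pool 6). No pool of the mesenchymal, granulocyte-like or T-cell-like cells exceeded 0.696 UMIs per 10,000, and mesenchymal (0.142 ± 0.106) and granulocyte-like cells (0.0966 ± 0.0893) were no higher than T-cell-like cells (0.264 ± 0.294). After thinning, 29.4% of macrophage-like cells and 1.19% of T-cell-like cells had an *Mmp12* UMI, from median depths of 4785 and 4586.75 UMIs.

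Each TIMP gene had its own order over the classes. *Timp1* was 37.9 ± 8.49 UMIs per 10,000 in osteoblast-like, 28.6 ± 8.37 in osteocyte-like and 26.2 ± 8.73 in contractile progenitor-like cells, with overlapping pools, and only 2.93 ± 1.297 in adipogenic-like cells, where the highest pool (5.86) lay below the lowest of the other mesenchymal sub-classes (15.6). *Timp3*, the matrix-bound inhibitor, was 14.6 ± 6.10 in contractile progenitor-like cells, whose lowest pool (8.86) lay above every pool of adipogenic-like (1.91 ± 0.513), osteoblast-like (0.843 ± 0.625) and osteocyte-like cells (0.413 ± 0.297). *Timp2* overlapped between mesenchymal (6.31 ± 1.43) and macrophage-like cells (5.81 ± 1.18), and among the gated mesenchymal sub-classes it was highest in contractile progenitor-like cells (10.3 ± 1.47).

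After thinning, a *Timp1* UMI was found in 86.7% of osteoblast-like cells (median depth 18339), 22.1% of adipogenic-like cells and 8.54% of T-cell-like cells. The same shares for *Timp2* were 56.7% of contractile progenitor-like (median depth 17670.8), 40.8% of macrophage-like and 6.00% of T-cell-like cells. *Timp2* in macrophage-like cells was 14.8 times the T-cell-like level, higher in 4 of 4 pools. In contrast, *Timp1* (1.38 times, 4 of 4 pools) and *Timp3* (1.45 times, 3 of 4 pools) in macrophage-like cells were close to the T-cell-like level.

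**Figure D2:**
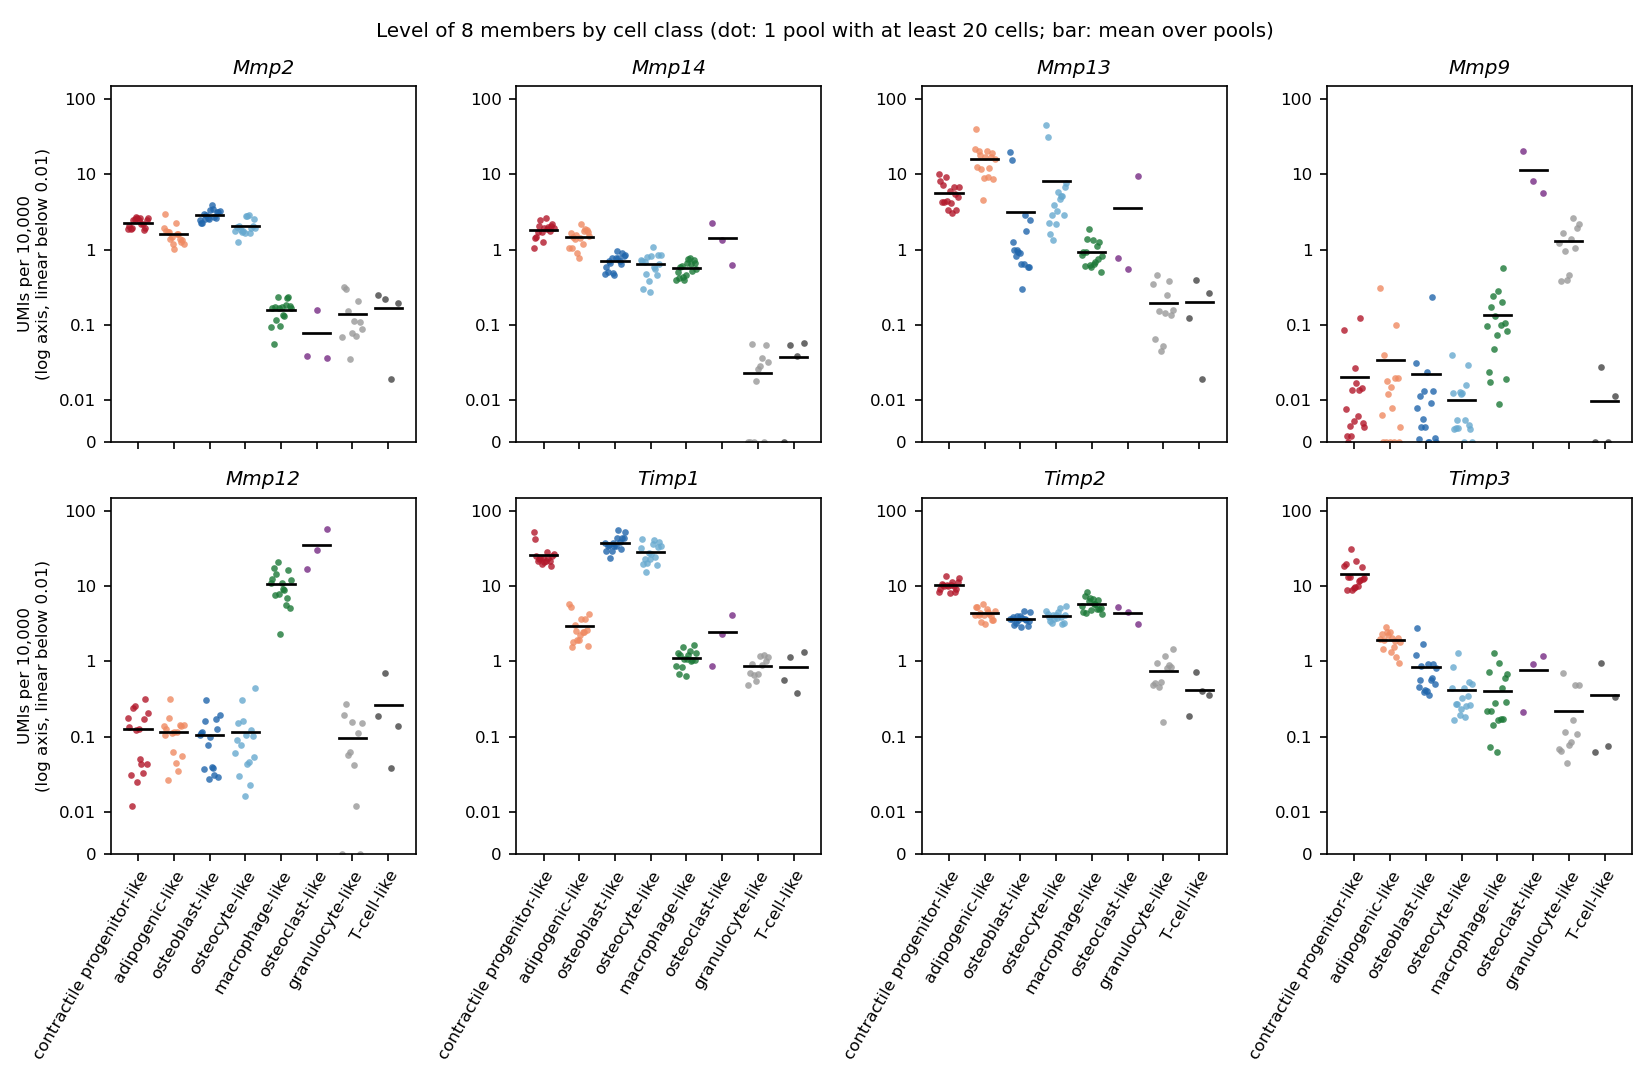
Level of 8 members in UMIs per 10,000 (log axis, linear below 0.01) in 8 gated classes. Each dot is a pool with at least 20 cells of the class and each bar the mean; *Mmp9* peaks in osteoclast-like cells (mean 11.4), *Mmp12* in osteoclast- and macrophage-like cells (35.02 and 10.6), *Timp1* is low in adipogenic-like cells (2.93) and *Timp3* is highest in contractile progenitor-like cells (14.6). The osteoclast-like bar rests on 3 pools, and the osteoclast-like cells carrying *Mmp12* were low in several osteoclast markers. *Mmp3* is not shown.

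The first comparison asked how haematopoietic classes differed from mesenchymal cells of the same pools. Differences are log2 changes ± SE from edgeR's quasi-likelihood test on UMI counts summed per pool and class, with pool as a block, and p is adjusted over all genes tested. In macrophage-like minus mesenchymal cells (16 pools), 2 of the 8 members tested were higher and 5 lower, against 40.7% of all genes tested that were higher and 44.4% that were lower. *Mmp12* was higher by 6.49 ± 0.22 (adjusted p = 2.13e-17, higher in 16 of 16 pools) and *Mmp9* by 2.95 ± 0.41 (adjusted p = 8.88e-07, 15 of 16 pools). *Timp1* (-4.73 ± 0.13), *Timp3* (-4.09 ± 0.17), *Mmp2* (-3.93 ± 0.13), *Mmp13* (-2.56 ± 0.21) and *Mmp14* (-1.07 ± 0.07) were lower, each in 16 of 16 pools. *Timp2* differed by -0.09 ± 0.10 (adjusted p = 0.431), and was called lower by DESeq2 (-0.25, adjusted p = 0.0224) and with no filter on low counts (-0.26, adjusted p = 0.0307).

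In granulocyte-like minus mesenchymal cells (11 pools) 1 of 8 members was higher and 6 were lower (background 26.6% and 50.3%, with a median change of all genes of -0.50). The higher gene was *Mmp9* (7.33 ± 0.37, adjusted p = 9.64e-17), and *Mmp12* differed by -0.12 ± 0.23 (adjusted p = 0.630). In osteoclast-like minus mesenchymal cells (3 pools) 2 of 8 were higher and 5 lower (background 18.6% and 24.8%, median change of all genes -0.22). *Mmp9* was higher by 8.74 ± 0.46 (adjusted p = 2.11e-13) and *Mmp12* by 7.16 ± 0.32 (adjusted p = 1.69e-14). *Mmp14* differed by 0.23 ± 0.33 (adjusted p = 0.607), a value that depended on single pools, since without pool 6 the difference was 0.85 (adjusted p = 3.28e-05) and without pool 1 it was -0.62 (adjusted p = 0.146). The lower call for *Timp2* (-0.70 ± 0.24, adjusted p = 0.0212) was lost without pool 6 (-0.35, adjusted p = 0.118), and without the pool block it had an adjusted p of 0.0784 and the lower call for *Mmp13* (-3.62 ± 0.77) one of 0.0672.

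The next comparisons were between the 3 myeloid classes. Osteoclast-like minus macrophage-like cells (3 pools) had 3 of 8 members higher and none lower (background 4.67% and 5.49%). *Mmp9* was higher by 7.66 ± 0.28 (adjusted p = 6.52e-07), *Mmp14* by 1.63 ± 0.31 (adjusted p = 0.00935) and *Mmp12* by 1.07 ± 0.15 (adjusted p = 0.00245), all in 3 of 3 pools. *Timp1* differed by 0.69 ± 0.22 (adjusted p = 0.0843), and without pool 1 it passed the threshold (1.03, adjusted p = 0.00379). With the minimum lowered to 10 cells, an alternative chosen after the data were seen, 9 pools entered and 3 members were higher and 1 lower (background 10.7% and 13.1%). *Mmp9* (7.22 ± 0.39) and *Mmp14* (1.66 ± 0.19) were then higher in 9 of 9 pools and *Mmp12* (1.02 ± 0.29, adjusted p = 0.0144) in 7 of 9, while *Timp2* was lower (-0.60 ± 0.17, adjusted p = 0.0111) in 8 of 9. Fitted without the pool block, the 3-pool calls of *Mmp14* (adjusted p = 0.0677) and *Mmp12* (adjusted p = 0.208) did not pass the threshold. In pools 9 and 13 *Mmp12* was lower in osteoclast-like (8.66 and 4.91 UMIs per 10,000) than in macrophage-like cells (10.9 and 6.90). The *Mmp12* calls of osteoclast-like cells, here and against other classes, are of the gated class. Its *Mmp12* cells, described below, were low in *Acp5*, *Nfatc1*, *Calcr* and *Oscar*.

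Granulocyte-like minus macrophage-like cells (11 pools) had 1 of 8 members higher and 4 lower (background 34.7% and 37.8%), so that over both directions the share called was not above that of all genes. *Mmp9* was higher (3.85 ± 0.35, adjusted p = 1.29e-09, 11 of 11 pools), and *Mmp12* (-6.10 ± 0.20), *Mmp14* (-3.81 ± 0.24), *Timp2* (-2.35 ± 0.23) and *Mmp13* (-1.83 ± 0.19) were lower. *Timp3* differed by -0.28 ± 0.16 (adjusted p = 0.213) and was called lower by DESeq2 (-0.47, adjusted p = 0.0419) and with library totals (-0.86), at levels near those of T-cell-like cells. *Mmp9* was thus the 1 member higher than in macrophage-like cells in both osteoclast- and granulocyte-like cells. Only 1 pool had 20 cells of both of these classes, and in the 7 pools with at least 10 cells of each, 5 of 6 members tested were higher in osteoclast-like cells and none lower (background 26.6% in each direction), *Mmp12* by 7.33 ± 0.33, *Mmp14* by 5.23 ± 0.42 and *Mmp9* by 3.55 ± 0.63 (adjusted p = 1.59e-04).

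**Figure D3:**
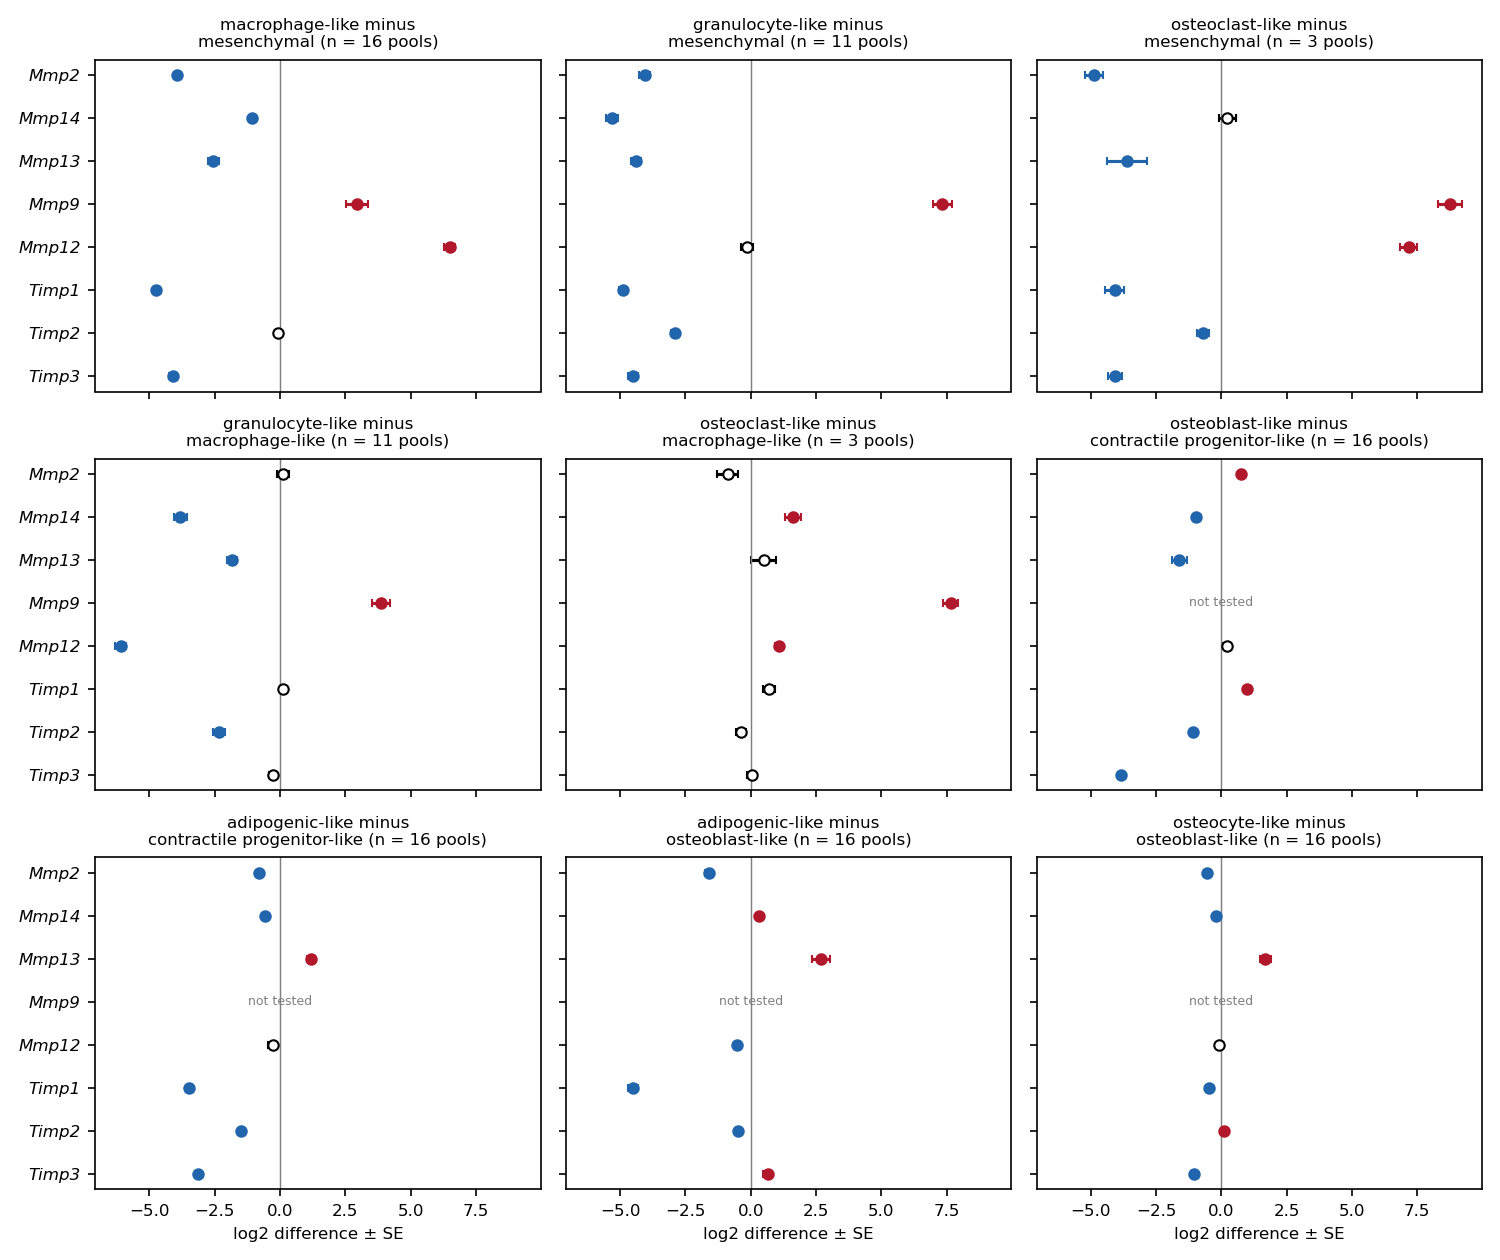
Log2 difference ± SE of the members in 9 comparisons between classes (edgeR, pool as block). Filled red and blue points are higher and lower past an adjusted p of 0.05, and open points are not past it; *Mmp9* stands at 7.66 in osteoclast-like minus macrophage-like cells, and *Timp2* in adipogenic-like minus osteoblast-like cells (-0.49) becomes 0.25 when counts are scaled by library totals.

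The comparisons within the mesenchymal cells asked how the gated sub-classes differed in each gene (16 pools each). Mesenchymal cells outside every sub-class were not compared, although they too held RNA of the members. Mesenchymal cells as a whole held 95.7% of all *Mmp13* UMIs. Adipogenic-like cells held 15.8%, contractile progenitor-like 12.0%, osteoblast-like 8.68% and osteocyte-like 7.03%. In osteoblast-like minus contractile progenitor-like cells 2 of 7 members tested were higher and 4 lower (background 37.8% and 40.4%). *Timp1* was higher by 0.98 ± 0.13 (adjusted p = 3.57e-07) and *Mmp2* by 0.75 ± 0.06, each in 14 of 16 pools, and *Timp3* (-3.85 ± 0.11), *Timp2* (-1.08 ± 0.04) and *Mmp14* (-0.99 ± 0.05) were lower in 16 of 16. *Mmp13* was lower by -1.61 ± 0.29 (adjusted p = 3.69e-05) in 14 of 16 pools, the exceptions being pools 1 and 2, and without the pool block this call was lost (-0.51, adjusted p = 0.320).

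In adipogenic-like minus contractile progenitor-like cells 1 of 7 was higher and 5 lower (background 39.2% and 34.5%). *Mmp13* was the higher gene (1.17 ± 0.15, adjusted p = 5.40e-07, 16 of 16 pools), and *Timp1* (-3.47 ± 0.11), *Timp3* (-3.14 ± 0.13) and *Timp2* (-1.50 ± 0.08) were all lower in 16 of 16 pools. The proteinase genes *Mmp2* (-0.79 ± 0.11) and *Mmp14* (-0.59 ± 0.07) were lower as well, so *Mmp13* was the exception among the 6 members called. Against osteoblast-like cells they had 3 of 7 members higher and 4 lower (background 40% and 39.1%). *Mmp13* (2.69 ± 0.33, adjusted p = 1.64e-07, 16 of 16 pools), *Timp3* (0.64 ± 0.16) and *Mmp14* (0.33 ± 0.07) were higher and *Timp1* (-4.51 ± 0.18, 0 of 16 pools higher) and *Mmp2* (-1.61 ± 0.13) lower. *Timp2* was lower by the TMM-scaled fit (-0.49 ± 0.07) and higher when scaled by library totals (0.25, adjusted p = 7.51e-04), and the summed levels were higher in 14 of 16 pools. *Mmp12* likewise went from -0.52 ± 0.12 to 0.22 (without the pool block -0.54, adjusted p = 0.118), at levels not above those of T-cell-like cells.

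In osteocyte-like minus osteoblast-like cells 2 of 7 were higher and 4 lower (background 20.6% and 21.7%). *Mmp13* was higher by 1.69 ± 0.21 (adjusted p = 5.73e-07) in 16 of 16 pools. *Timp2* was higher by 0.10 ± 0.03 (adjusted p = 0.0159), and *Timp3* (-1.07 ± 0.09), *Mmp2* (-0.55 ± 0.04), *Timp1* (-0.48 ± 0.06) and *Mmp14* (-0.23 ± 0.07) were lower. Without the pool block the calls of *Mmp13* (1.29, adjusted p = 0.112), *Timp2* (adjusted p = 0.434) and *Mmp14* (adjusted p = 0.289) were lost. The *Mmp14* call was also lost with stricter gates (-0.06, adjusted p = 0.669).

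Scaling bears on 4 of these comparisons. With library totals in place of TMM the share of calls that were higher went from 47.9% to 22.9% in granulocyte-like minus macrophage-like, from 48.3% to 21.5% in osteoblast-like minus contractile progenitor-like, from 53.2% to 74.3% in adipogenic-like minus contractile progenitor-like and from 50.5% to 83.2% in adipogenic-like minus osteoblast-like cells. The median change of all genes moved in them from -0.05 to -0.60, -0.02 to -0.44, 0.04 to 0.30 and 0.01 to 0.75.

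*Mmp13* stood apart in pools 1 and 2. In osteoblast-like cells these pools had 20.02 and 15.4 UMIs per 10,000 against 0.301 to 2.87 in the other 14, and in osteocyte-like cells 45.5 and 31.3 against 1.35 to 7.68. Neither class overlapped between these 2 pools and the rest. In adipogenic-like cells pool 1 (21.7) lay just above and pool 2 (40.7) well above the other pools (4.54 to 20.4), in contractile progenitor-like cells pool 1 (10.1) was above and pool 2 (8.15) within the range of the others (3.04 to 9.21), and in macrophage-like cells both (0.840 and 0.936) were within it (0.511 to 1.88).

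The high levels were spread over cells. After thinning to 1000 UMIs, 54.5% and 43.1% of the osteoblast-like cells of pools 1 and 2 had an *Mmp13* UMI against 2.97% to 23.3% in the other pools, and 68.5% and 47.7% of the osteocyte-like cells against 8.72% to 28.1%. Without thinning the osteoblast-like shares were 87.3% and 80.2% against 24.9% to 59.5%. The osteocyte-like shares were then 86.7% and 77.9% against 31.2% to 69.4%. *Timp1* was also highest in these pools in contractile progenitor-like cells (52.1 and 42.2 against 18.7 to 28.2) and in adipogenic-like cells (5.86 and 5.34 against 1.55 to 4.25). The summed mesenchymal marker list was lowest in pools 1 and 2 in osteoblast-like (347 and 296 against 371 to 548) and osteocyte-like cells (289 and 278 against 378 to 514), while the summed osteoblast markers (293 and 253 against 210 to 446) and osteocyte markers (53.1 and 53.3 against 45.8 to 62.4) of these same classes were within the range of the others. The labels number the mice of pools 1 and 2 from 251 to 264, above those of all other pools (highest 249), and give no date or batch. Pools 1 and 2 also held the largest shares of osteoclast-like cells (1.80% and 1.39% of kept cells). The part of the marker levels in the *Mmp13* levels was not tested, and the relation of *Mmp13* to the osteoclast-like share among the other 14 pools is given under the other observations. The pools are described here without a test because they were picked out by their *Mmp13*. Without both pools *Mmp13* was lower in osteoblast-like than contractile progenitor-like cells by -1.96 ± 0.17 and higher in osteocyte-like than osteoblast-like cells by 1.80 ± 0.22, 14 pools each.

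**Figure D4:**
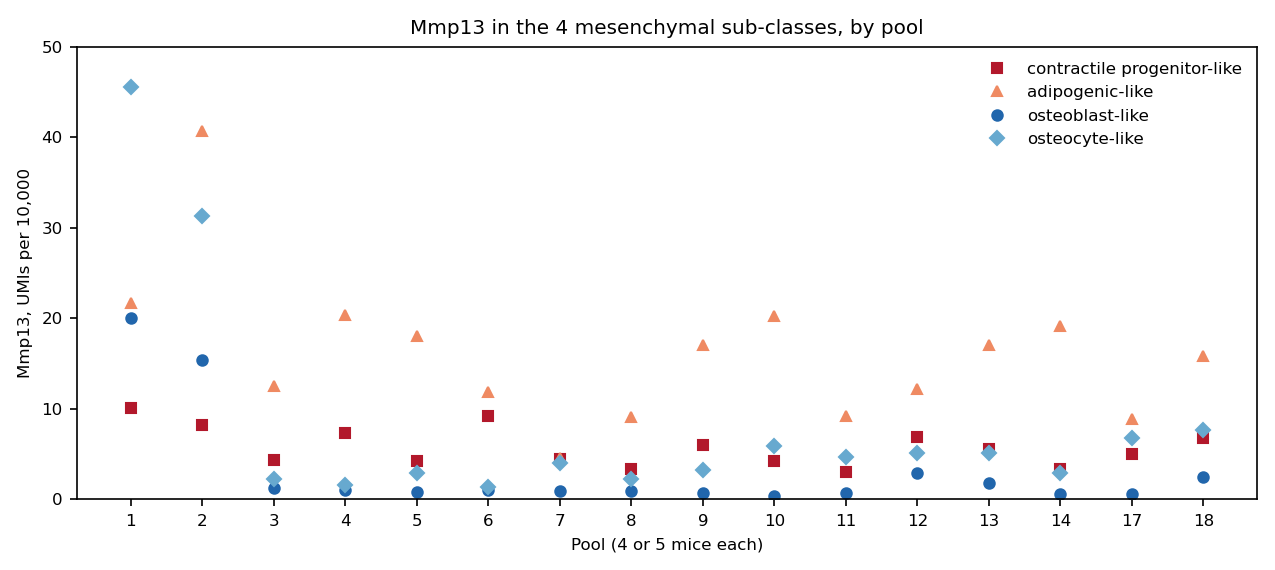
*Mmp13* in UMIs per 10,000 (linear axis) in 4 mesenchymal sub-classes of each of 16 pools. Pools 1 and 2 reach 20.02 and 15.4 in osteoblast-like and 45.5 and 31.3 in osteocyte-like cells, above all other pools, whose adipogenic-like cells are their highest sub-class.

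*Mmp9* and *Mmp12* were carried by different osteoclast-like cells. With at least 3 UMIs of a gene taken as carrying it, 141 of the 369 osteoclast-like cells carried *Mmp9* only, 134 *Mmp12* only, 4 both and 90 neither. *Mmp12* was carried by 2.76% of the 145 cells with *Mmp9* and by 59.8% of the 224 cells without it, and the first share was the lower in 9 of 9 pools with at least 10 osteoclast-like cells. In pool 1 the counts were 62 *Mmp9* only, 32 *Mmp12* only and 1 both, and in pool 2 they were 21, 39 and 1. The median depth of the cells with *Mmp9* and of those with *Mmp12* only was 11965 and 10649.5 UMIs in pool 1 and 11047 and 10198 in pool 2. In the 9 pools it ran from 7657 to 18400 in the first and from 5708 to 14051 in the second, with the widest gap in pool 9 (18400 and 5708), and the part of depth in the division was not tested.

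The cells carrying 1 of these genes also differed in osteoclast markers. These values are a description, since the cells were split by the measured members after their values were seen. Over 6 pools with at least 4 cells of each kind (107 *Mmp9* and 112 *Mmp12* cells), *Acp5*, the tartrate-resistant acid phosphatase, was 110 ± 51.2 UMIs per 10,000 in *Mmp9* cells and 3.45 in *Mmp12* cells. *Ctsk*, cathepsin K, was 83.3 and 23.8, *Nfatc1*, the master transcription factor of osteoclasts, 7.53 and 0.725, the calcitonin receptor gene *Calcr* 1.73 and 0.0150 and *Oscar* 1.12 and 0.00377. *Atp6v0d2*, a proton pump subunit, was alike at 10.9 and 11.0. The *Mmp12* cells that passed the osteoclast gate were thus low in *Acp5*, *Nfatc1*, *Calcr* and *Oscar*. For them the class name rests mostly on *Ctsk* and *Atp6v0d2*, within a summed osteoclast list of 41.8 against 221 in *Mmp9* cells. This also holds for the *Mmp12* level of the class given above. The carbonic anhydrase gene *Car2* was higher in *Mmp12* cells (2.17 against 0.721, in 5 of 6 pools), though below their *Acp5*. These cells had more *Cd14* (4.14 against 0.525) and less *Csf1r* (1.65 against 6.57). Of the other members, *Mmp14* was 3.10 ± 1.20 in *Mmp9* cells and 0.516 ± 0.272 in *Mmp12* cells, higher in 6 of 6 pools, *Timp2* was 4.39 and 3.13 (5 of 6 pools) and *Timp1* 1.58 and 1.37 (3 of 6 pools).

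The pool levels of the class sum these same cells, so a varying mix of the 2 kinds enters each of them, and relations between pools are no separate evidence of the division. Over the 9 pools with at least 10 osteoclast-like cells, the log2 levels of *Mmp12* and *Mmp9* had a Pearson r of -0.746 (exact permutation p = 0.0242, adjusted over 6 relations p = 0.0484) and a Spearman rho of -0.7 (exact permutation p = 0.0433, adjusted p = 0.0754). *Mmp14* rose with the summed osteoclast markers (r = 0.938, exact permutation p = 1.74e-04, adjusted p = 0.00104; rho = 0.883, exact permutation p = 0.00308, adjusted p = 0.0185). *Mmp9* did so as well (r = 0.806, exact permutation p = 0.00934, adjusted p = 0.0280; rho = 0.8, exact permutation p = 0.0138, adjusted p = 0.0414), whereas *Mmp12* had r = -0.661 with them (exact permutation p = 0.0549, adjusted p = 0.0823; rho = -0.683, exact permutation p = 0.0503, adjusted p = 0.0754). With the 2 most extreme pools on the x axis left out, r was -0.633, 0.843, 0.578 and -0.499 for these 4 relations. The relations were chosen after the values were seen, and each point is the sum of 10 to 129 cells.

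**Figure D5:**
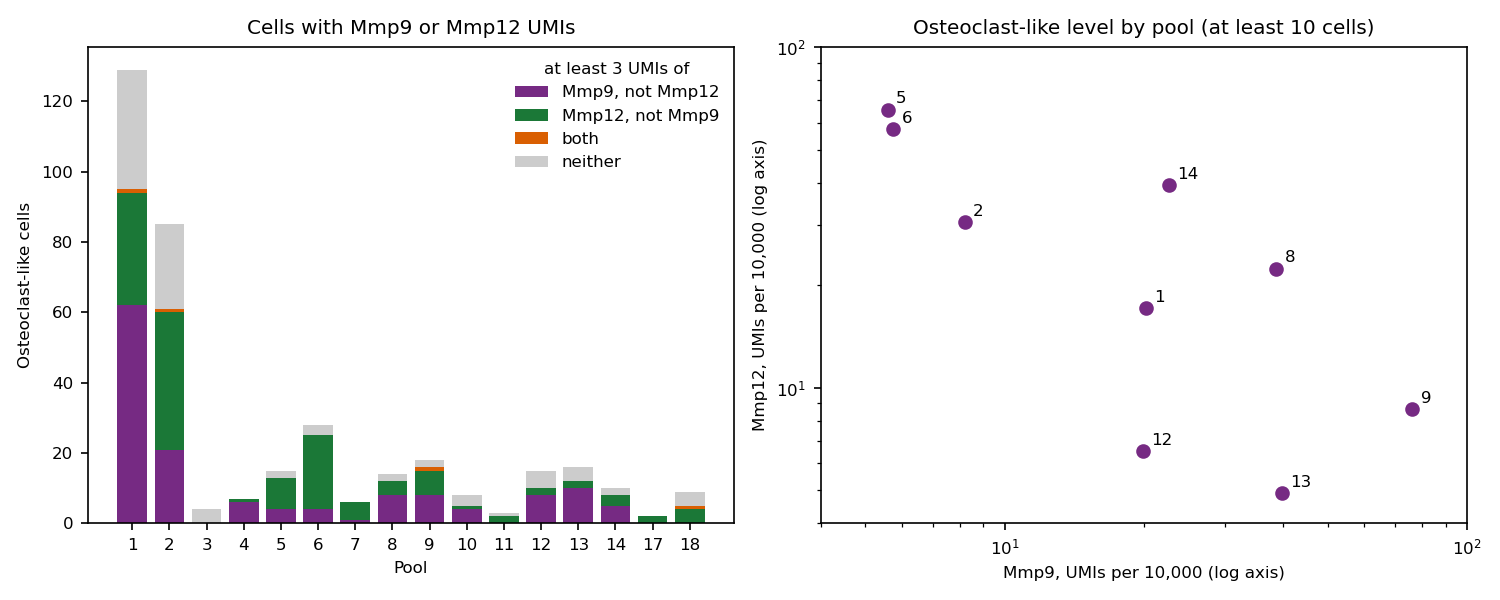
Left, osteoclast-like cells of each pool by whether they held at least 3 UMIs of *Mmp9* only, *Mmp12* only, both or neither (stacked counts of cells). Right, *Mmp12* against *Mmp9* in UMIs per 10,000 (log axes) in 9 pools with at least 10 such cells; cells with both number 4 of 369, and pools high in one gene tend to be low in the other.

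Other genes of the pathway were taken from 3 lists. Of 16 further MMP genes in the files, 7 were tested in macrophage-like minus mesenchymal cells, with 3 higher and 4 lower (against 40.7% and 44.4% of all genes; median change -2.77, all genes -0.06). *Mmp27* was higher in macrophage-like cells (6.38) and *Mmp23* lower (-4.67, with 2.63 ± 0.428 UMIs per 10,000 in mesenchymal cells). *Mmp8*, the neutrophil collagenase, was 4.94 ± 3.37 in granulocyte-like cells and higher there than in macrophage-like cells by 4.43 ± 0.34. *Mmp19* was the 1 of 4 further MMP genes tested that was higher in osteoclast-like than macrophage-like cells (1.39 ± 0.20, adjusted p = 0.00242, against 4.67% of all genes).

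Of 18 inhibitors, activators and receptors of the system, 16 were tested in macrophage-like minus mesenchymal cells, with 7 higher and 9 lower, near the shares of all genes (40.7% and 44.4%). *Ctsb* (4.47) and *Ctsl* (1.79), lysosomal cathepsins, were higher in macrophage-like cells, and *Bsg* (-2.27), the MMP inducer basigin, and *Serpine2* (-4.31), a serine protease inhibitor, were lower. None of 11 tested was called in osteoclast-like minus macrophage-like cells by edgeR with 3 pools (background 4.67% higher and 5.49% lower), where 5 were lower at an unadjusted p under 0.05, and with 9 pools 5 were called lower and none higher (background 13.1% and 10.7%). Of 16 genes of a list of further metalloproteinases, the ADAM and ADAMTS families and the tolloid-type *Bmp1*, 5 were higher and 10 lower in macrophage-like than mesenchymal cells (40.7% and 44.4% of all genes), *Adam8* (6.68) and the sheddase *Adam17* (1.96) among the first and *Adamts1* (-3.83) and *Bmp1* (-4.16), the procollagen C-proteinase, among the second.

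The genes whose levels were most like those of the members were listed by Pearson r of log2 levels over 94 sums of a class in a pool, among 8390 genes, as a description with no p since the sums share pools and libraries. For *Mmp12* they were *Gpnmb* (0.978), *Il7r* (0.974) and *C3ar1* (0.973), and for *Mmp9* *Pstpip1* (0.847), *Dock5* (0.823) and *Arap3* (0.811). *Mmp2* was nearest to *Hspg2* (0.978), the perlecan gene, and *Mmp14* to *Chd3* (0.937). *Timp1* was nearest to *Unc5b* (0.954) and *Alpl* (0.953), *Timp3* to *Acta2* (0.931) and *Timp2* to *Lmna* (0.931). *Alpl* and *Acta2* are themselves gate markers. The nearest gene to *Mmp13* was *Brms1l* (0.852), a lower value than for any other member but *Mmp9*, and *Mmp3* was below the level needed for the measure.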

How the data were processed

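Droplet libraries of 16 pools were analysed. The deposited values are raw UMI counts per gene and barcode, which the authors made with Cell Ranger 5.0.0 against GRCm38 (mm10), per the labels and the study's methods; the annotation release is not given in the sources used here. The tables hold every barcode called as a cell, before the study's own filters. Run 1 of each pool was used, and run 2 as an alternative.

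Cells were kept at 400 to 6200 detected genes when mitochondrial genes held no more than 10% of UMIs, Rpl genes 20% and Rps genes 15%, and simulated-neighbour doublets (0.8% per 1000 barcodes, 2000 genes, 30 components) were removed, 4531 of 88909 cells (5.10%). Cells with at least 1000 UMIs were gated on 125 markers in 14 lists, none a member. A mesenchymal cell needed 3 markers and 30 UMIs per 10,000, at least 4 times its leukocyte share. A leukocyte needed 3 and 15, and a share only no lower than its mesenchymal share. Macrophage-like cells needed 5 and 15, osteoclast-like 4 and 20, granulocyte-like 4 and 100 and T-cell-like 3 and 5. Osteoblast-like cells needed 5 and 100, osteocyte-like 4 and 30, adipogenic-like 4 and 60, and contractile progenitor-like 4 and 40. These limits were set after the counts were seen. The members and gene lists were chosen with earlier results of these data known.

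Counts were summed per pool and class (at least 20 cells) and tested with edgeR 4.0.16 (R 4.3.3; filterByExpr, TMM, quasi-likelihood, Benjamini-Hochberg at 0.05, pool as block), which was tested on simulated data. Classes of a pool come from the same mice and droplets: deviations of the same pool correlated at medians of 0.135 to 0.590 (lowest 0.0339) and those of different pools at -0.348 to -0.0132. Alternatives were run 2, doublets kept, no upper gene limit, stricter gates, DESeq2 1.42.0, library totals, no filter, no block, at least 50 cells, leaving out pool 13, and leaving out each pool in turn in the comparisons with 3 pools; at least 10 cells and leaving out pools 1 and 2 were added after seeing the data. The 4 genes of each other list with the highest mean level in a main class were named; the nearest genes were the 3 with the highest r on log2(CPM + 10) over sums of a class and pool. Relations over 9 pools used exact permutation tests and those over 14 pools 100000 permutations (scipy 1.17.1). UMIs count molecules, so totals limit precision by counting error only. Promoters are from RefSeq and gene positions from GENCODE (GRCm38). Reads of single mice were not analysed here.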

Additional observations from a re-analysis of the deposited data

Results flagged for a closer look

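In 18 groups of 4 to 10 pools, 2 single pools lay far from the rest on the linear scale. Chance alone marks about 1 group in 20 if levels are normally distributed, which was not tested. Log2 levels were not put to this rule. *Mmp9* in the osteoclast-like cells of pool 9 was 76.2 UMIs per 10,000, and the next pool had 39.7. The value comes from 18 cells with 1567 *Mmp9* UMIs. *Mmp13* in the osteoclast-like cells of pool 6 was 9.56 UMIs per 10,000, and the next pool had 1.77. It comes from 28 cells with 263 UMIs, of which 245 were in 1 cell, and in pool 8 similarly 44 of 45 *Mmp13* UMIs were in 1 cell. Without pool 6 the *Mmp13* difference between osteoclast-like and macrophage-like cells went from 0.50 to -0.42 on the log2 scale, and neither value passed the threshold.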

How the results depend on the processing

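Of 68 member differences 54 passed the threshold, and 45 of the 68 kept their direction and side of the threshold in every one of their refits (728 in all). Counts of genes past the threshold moved by over 1.5 times in 3 comparisons. In osteoclast-like minus macrophage-like cells (1019 genes) they were 2152 with stricter gates, 640 with DESeq2, 1550 with no filter, 1850 with at least 50 cells, 2080 with at least 10 cells and 297 to 1850 when 1 of the 3 pools was left out, the lowest without pool 2. In osteoclast-like minus mesenchymal cells (5817 genes) leaving out a pool gave 3693 (without pool 2) to 6685 genes. Without the pool block the first comparison gave 269 genes and osteocyte-like minus osteoblast-like cells 2004 in place of 4564, and 9 member calls were lost. Without pools 1 and 2, and without pool 13, all 36 member differences refitted kept their direction and side of the threshold.

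Signs turned as follows, and except for *Timp1* and *Timp2* with library totals none of the turned values passed the threshold. The cause was not tested. With library totals they were 0.22 (*Mmp12*) and 0.25 (*Timp2*) in adipogenic-like minus osteoblast-like, -0.18 (*Mmp12*) in osteoblast-like minus contractile progenitor-like, and -0.45 (*Mmp2*) and -0.42 (*Timp1*, adjusted p = 0.00115) in granulocyte-like minus macrophage-like cells. In the last comparison *Mmp2* was -0.21 in run 2, -0.042 with DESeq2 and -0.067 with no filter, *Timp1* -0.045 with no filter and *Timp3* 0.044 in run 2. *Mmp12* in granulocyte-like minus mesenchymal cells was 0.11 with stricter gates, 0.061 with no upper gene limit, 0.058 with at least 10 cells and 0.0062 without the block, and in osteocyte-like minus osteoblast-like cells 0.041 without the block. *Timp2* was 0.020 in macrophage-like minus mesenchymal and 0.045 in osteoclast-like minus macrophage-like cells with stricter gates. In the latter comparison *Mmp13* was -0.40 with stricter gates, -0.42 with at least 50 cells, -0.42 to 1.09 with a pool left out (-0.42 without pool 6) and -0.20 with at least 10 cells, and *Timp3* was -0.22 in run 2, -0.18 with doublets kept, -0.0054 with no filter, -0.12 without the block, -0.13 to 0.18 with a pool left out (-0.13 without pool 2) and -0.20 with at least 10 cells. *Mmp14* in osteoclast-like minus mesenchymal cells was -0.62 (without pool 1) to 0.845 (without pool 6).

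The osteoclast-like values rest on 369 cells, and granulocyte-like *Timp1* and *Timp3* were not detectable above T-cell-like cells at this depth.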

Other observations

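Further genes of the 3 pathway lists differed among the mesenchymal sub-classes. Of the 16 genes of the list of ADAM, ADAMTS and tolloid-type proteinases, all tested, 11 were higher and 3 lower in osteoblast-like than in contractile progenitor-like cells (median change 0.51, all genes -0.02), against 37.8% and 40.4% of all genes. With library totals the higher share of all calls in this comparison went from 48.3% to 21.5%. The tolloid-type *Bmp1* was higher by 1.87 there. *Adamts1*, an aggrecan- and versican-cutting proteinase, was 4.97 ± 1.32 UMIs per 10,000 in adipogenic-like cells and 1.89 ± 0.376 in all mesenchymal cells (n = 16). *Mmp19* was higher in adipogenic-like than osteoblast-like cells by 2.54, at 0.186 ± 0.0268 UMIs per 10,000. *Bsg* was 18.0 ± 5.62 in mesenchymal and 7.14 ± 1.55 in adipogenic-like cells. *Adam8* was 5.15 ± 1.38 in macrophage-like cells and lower in osteoclast-like cells by -0.77 (adjusted p = 0.0263), and 5 of 9 genes of this list tested were lower in that comparison with none higher, against 5.49% and 4.67% of all genes.

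Among the 14 pools other than 1 and 2, *Mmp13* in osteoblast-like cells had r = 0.114 with the share of osteoclast-like cells (permutation p = 0.698, adjusted p = 0.698; rho = 0.125, permutation p = 0.671), and *Mmp13* in osteocyte-like cells r = -0.486 (permutation p = 0.0762, adjusted p = 0.0914; rho = -0.415, permutation p = 0.138). With the 2 most extreme pools left out they were 0.0319 and -0.121. Neither relation passed the threshold.

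The 2 sequencing runs of the same libraries gave levels of the members with median log2 differences of run 2 minus run 1 between -0.0706 (*Mmp9*) and 0.00991 (*Timp1*). Single values of a class in a pool differed by more, from -2.55 to 0.951 for *Mmp9*, -1.62 to 0.878 for *Mmp12* and -0.952 to 1.02 for *Timp3*.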
